A study of Mus musculus with 23 samples.

Results

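The hippocampus of mice labelled as knockouts of Nrsn2 was compared between mice that had been defeated repeatedly and mice that had not, with 10 of the 23 RNA libraries of the series. Nrsn2 encodes neurensin 2, a small membrane protein of neurons. The 5 CSDS libraries (CSDS 1 to CSDS 5) came from knockout-labelled mice after chronic social defeat stress, a protocol in which an aggressive CD-1 mouse, a different one on each of 10 consecutive days, was met for 5 min and then stayed behind a divider for the rest of the 24 h. The 5 control libraries (control 6 to control 10) came from knockout-labelled mice without defeat, so both groups carry the same genotype label. Membership was set by the labels alone: a library entered where its title and its treatment field gave the same condition. For 2 more knockout-labelled libraries, 10B and 11, the title reads control and the treatment field CSDS, and they were left out. The sources used here give no Nrsn2 allele, strain, sex or age of the mice, and do not say whether each library was 1 animal. The p-values therefore measure only how much these libraries vary.

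Levels are RPKM, read density per kilobase of a gene, scaled for library size. A difference is a log2 fold change of RPKM + 0.5, CSDS minus control, with its standard error, and it understates the change of low genes. A gene is said to have risen or fallen where limma's p-value, adjusted by the Benjamini-Hochberg method over all 18259 genes tested, was under 0.05. Means carry the SD over 5 libraries. These are bulk tissue libraries, in which fewer cells of a type and less RNA per cell cannot be told apart.

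The label check came first. Nrsn2 was read at 32.3, 31.4, 31.4, 28.0 and 33.1 RPKM in controls 6 to 10 and at 33.7, 37.4, 35.5, 32 and 32 RPKM in CSDS 1 to 5. The groups overlapped, and the difference of 0.13 ± 0.05 did not pass (limma adjusted p = 0.149; exact two-sided permutation p = 0.0635, smallest possible 0.00794). The gene was thus expressed in every library that carries the knockout label, and "knockout-labelled" is used only as a label. In WT libraries it was at 29.1 ± 2.42 RPKM in 5 controls and 29.7 ± 2.55 RPKM in 5 CSDS libraries, from a table the authors scaled separately. Its paralog Nrsn1 was at 73.6 ± 4.26 and 77.5 ± 3.32 RPKM (0.07, limma adjusted p = 0.294).

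Hippocampal markers were present in every library: C1ql2 of dentate granule cells was at 19.2 to 28.1 RPKM, Wfs1 of CA1 at 26.3 to 42.1 RPKM and Rgs14 of CA2 at 28.4 to 34.7 RPKM. Estimated depth was 25.62 M (control 7) to 52.25 M reads (control 10) in controls and 37.03 to 50.41 M after CSDS, and correlations between libraries of a group were 0.982 to 0.994 across genes. Control 10 stood apart, with 48.2 RPKM of Xist, the RNA that silences an X chromosome in females, and 0.499 RPKM of the Y-linked gene Ddx3y. The other 9 libraries had at most 0.0618 RPKM of Xist and at least 9.66 RPKM of Ddx3y, so the only library with this pattern was a control. The 2 libraries of conflicting label are given as single values beside the results, since their place decides how many genes pass.

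As background, neuronal activity switches on immediate early genes such as Fos, Fosb and Homer1 through calcium and CREB, heat shock factor and the unfolded protein response adjust chaperones to the load of unfolded protein, and the clock genes form a loop in which PER and CRY proteins repress their own activators over the day. Glucocorticoids, released during stress, act on hippocampal neurons and glia through 2 receptors. Repeated social defeat is used in mice to study lasting effects of stress on such programmes, and the time of day at which tissue was taken is not stated in the labels.

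Of the 18259 genes, 2747 passed (15%), of which 1126 rose (6.17%) and 1621 fell (8.88%), and 5536 had an unadjusted p under 0.05. The changes were mostly small: 156 genes (0.854%) passed with at least a 1.5-fold difference, 46 higher and 110 lower, and 38 (0.208%) with at least a 2-fold difference. Over all genes tested, 2358 (12.9%) had groups that did not overlap, and 2035 of these passed. The median difference was −0.01, and scaling changed the balance of directions: 41.0% of calls were higher as deposited, 52.2% after centring each library on its median and 52.4% after quantile normalization. Without control 10 the count was 3685 (20.2%), 1684 higher (9.22%) and 2001 lower (11%), with 2523 genes called both ways.

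The libraries of conflicting label changed the count far more. Counted as CSDS, as their treatment field has it, they left 146 genes (0.800%), 51 higher (0.279%) and 95 lower (0.520%), all 146 also called without them. Counted as control, as their title has it, they gave 3234 genes. At the 2035 called genes without overlap, library 11 lay within the range of the controls at 1292, within that of the CSDS libraries at 179 and in neither at 564, and library 10B at 942, 449 and 644. Every result below rests on the 10 libraries whose labels do not conflict. Of 249 named genes that passed, 163 did so whichever of the 10 was left out.

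Genes of smallest p, chosen by p alone, were led by Fosb and Dbp, which are described with their groups. Among the rest, Galns, a lysosomal sulfatase, was at 2.98, 2.91, 3.18, 3.13 and 3.12 RPKM in controls and at 4.73, 4.45, 4.60, 4.75 and 4.87 RPKM after CSDS (0.54 ± 0.04, limma adjusted p = 0.000108). Every CSDS library was above every control. Zfp46, a zinc finger gene, rose from 6.30 ± 0.199 to 10.2 ± 0.807 RPKM (0.66), Car7, a cytosolic carbonic anhydrase of neurons, from 4.46 ± 0.112 to 6.6 ± 0.360 RPKM (0.52), and Usp2, a ubiquitin protease with a daily rhythm in many tissues, from 8.24 ± 0.318 to 11.1 ± 0.210 RPKM (0.41). Smaller rises with tight groups were those of Gba2, a glucosylceramidase, at 0.27 ± 0.02, the microtubule gene Eml2 at 0.26 ± 0.02 and the noncoding gene Gm26892 at 0.57 ± 0.04, while Fam133b fell (−0.38). These 8 genes also moved the same way in wild-type (WT) libraries, which share no library with this comparison.

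**Figure D1:**
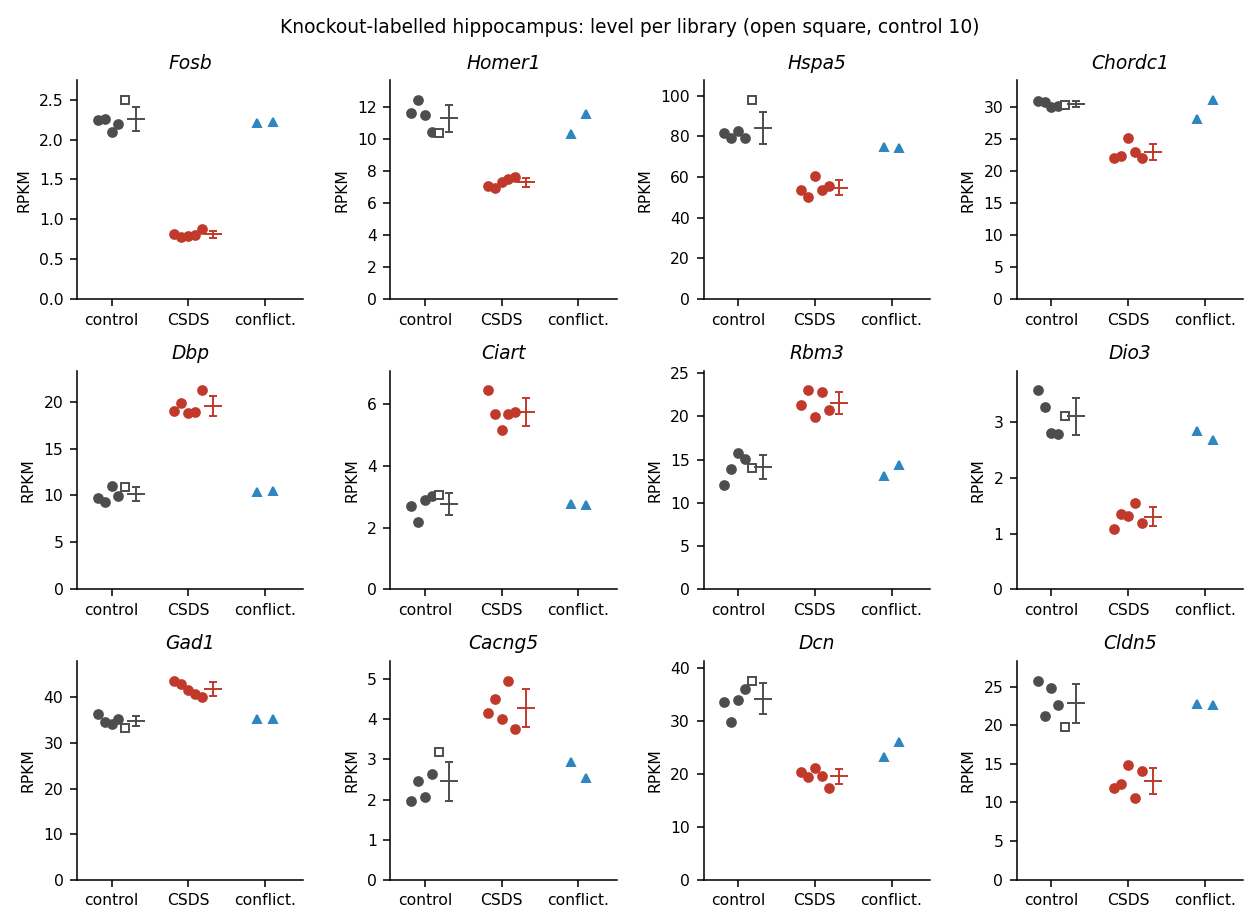
RPKM of 12 genes in each knockout-labelled library: 5 controls (grey, control 10 as an open square), 5 CSDS libraries (red) and the 2 libraries of conflicting label, 10B and 11 (blue triangles); bars are means with the SD over 5 libraries. In each of the 12 panels the control and CSDS groups do not overlap, and for Fosb, Dbp and Ciart both libraries of conflicting label lie with the controls, at 2.21 and 2.22, 10.3 and 10.5, and 2.75 and 2.73 RPKM.

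Genes that neurons switch on with activity were lower after CSDS. Of 7 tested genes of the AP-1 transcription factor, built from Fos and Jun proteins, 6 fell and 0 rose, with a median of −0.42, beside 8.88% of all genes that fell. Of 16 other activity-induced transcription factors 7 fell and 0 rose (median −0.27), and of 19 effector genes of activity 6 fell and 0 rose (median −0.11). These counts were 6, 7 and 6 without control 10, and 0, 0 and 0 with libraries 10B and 11 as CSDS. The count of transcription factors was 4 without CSDS 4 and 11 without control 7.

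Fosb (ENSMUSG00000003545, chr7:19302696-19310051, mm10), whose products build up in neurons under repeated stimulation, was at 2.24, 2.26, 2.1, 2.19 and 2.49 RPKM in controls and at 0.819, 0.772, 0.785, 0.798 and 0.878 RPKM after CSDS. The groups stood far apart, and within each the libraries were close together. The log2 fold change was −1.07 ± 0.05 (limma adjusted p = 9.77e-06), the smallest p of all genes tested. Fos was at 3.57, 2.64, 2.70, 3.14 and 5.13 RPKM in controls and at 1.75, 0.901, 1.15, 1.22 and 1.76 RPKM after CSDS (−1.08 ± 0.18, adjusted p = 0.0045), with no overlap although control 10 was the highest. Fosl2 (−0.42), Junb (−0.46), Jun (−0.23) and Fosl1 (−0.18) also fell. Jund, at 19.2 ± 2.38 and 16.7 ± 1.02 RPKM, did not pass (−0.19, limma adjusted p = 0.135).

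Among the other transcription factors, Crem, a repressor and activator of cAMP-driven transcription, was at 2.5, 2.73, 2.61, 2.5 and 2.61 RPKM in controls and at 1.65, 1.67, 1.52, 1.71 and 1.69 RPKM after CSDS (−0.53 ± 0.04, limma adjusted p = 0.000218). The 2 groups did not overlap, and neither held a library that stood apart. Klf4 fell from 1.55 ± 0.152 to 0.849 ± 0.102 RPKM (−0.60) and the orphan nuclear receptor gene Nr4a2 from 12.8 ± 1.13 to 9.11 ± 1.30 RPKM (−0.47), with Klf10 at −0.40, Nr4a3 at −0.32, Egr3 at −0.30 and Srf, which binds the promoters of many early genes, at −0.13. The remaining 9 of the 16 did not pass, among them Ier2 (−0.23, adjusted p = 0.0674), Egr4 (−0.34, adjusted p = 0.0825) and Btg2 (−0.18, adjusted p = 0.102).

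Of the effectors, Homer1 (ENSMUSG00000007617, chr13:93299635-93405129), whose short activity-induced form loosens the scaffold between metabotropic glutamate receptors and calcium stores, was at 11.6, 12.4, 11.5, 10.5 and 10.4 RPKM in controls and at 7.09, 6.95, 7.34, 7.52 and 7.65 RPKM after CSDS. The lowest control was above the highest CSDS library, and the log2 fold change was −0.59 ± 0.05 (limma adjusted p = 0.000252). RPKM is a value for the whole gene and does not separate its forms. Gadd45b, which takes part in DNA demethylation (−0.63), the activin subunit gene Inhba (−0.50), Gadd45g (−0.40) and Lonrf3 (−0.23) fell as well. Nptx1, a secreted pentraxin that gathers AMPA receptors at synapses, was at 114, 119, 111, 118 and 95.9 RPKM in controls and at 70.4, 77.5, 88.7, 77.3 and 90.3 RPKM after CSDS (−0.46 ± 0.08, adjusted p = 0.00465). Control 10 was the lowest control for Nptx1 and for Inhba, and without it the differences were −0.52 and −0.60.

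The 250 bases upstream of the Homer1 start are shown because the core of the CREB element, the letters TGACG on either strand, occurs 3 times in them (RefSeq, GRCm38.p6, chr13:93303507-93303756, + strand; the first of 2 starts listed; matches in capitals).
Homer1: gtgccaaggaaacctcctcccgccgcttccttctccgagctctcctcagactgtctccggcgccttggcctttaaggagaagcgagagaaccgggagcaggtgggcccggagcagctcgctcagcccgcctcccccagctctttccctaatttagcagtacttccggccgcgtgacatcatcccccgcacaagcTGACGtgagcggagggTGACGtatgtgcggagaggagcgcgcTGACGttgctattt
In windows of 300 bases, from 250 before to 50 after each start, these letters were in 21 of the 29 activity genes of all 3 lists that had a promoter in the table (72.4%), against 34.2% of 11389 tested genes and 20.8% of all 32851 promoters. Of the 14 that fell and had a promoter, 8 held them, so most of the 21 genes with the letters did not fall. The full element TGACGTCA, which contains this core, was in 4 of the 29 (13.8%), against 3.44% of tested genes, and in 0 of the 14. The motif was chosen after expression values and promoter letters had been seen, so these shares do not test a link with the fall. A match is a description of the letters and not of binding.

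The microRNA genes Mir132 and Mir212, which lie next to each other on chromosome 11 and are induced with activity, were also lower. Their mature forms are printed because they share the seed, bases 2 to 8 in capitals, which only 2 of 1738 mature mouse microRNAs of the RefSeq table hold (GRCm38.p6, chr11:75173723-75173744 and chr11:75173443-75173464, + strand).
mmu-miR-132-3p: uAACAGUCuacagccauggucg
mmu-miR-212-3p: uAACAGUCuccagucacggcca
Reads on the Mir132 locus were at 4.11, 1.93, 3.94, 4.63 and 5.68 RPKM in controls and at 1.46, 1.04, 0.267, 1.34 and 1.37 RPKM after CSDS (−1.53 ± 0.30, limma adjusted p = 0.00856). Control 7, the lowest control, was still above the highest CSDS library in RPKM. Values of such short loci rest on few reads, for Mir132 as for Mir212, and control 7 had the lowest estimated depth, 25.62 M reads. The separation was not tested on read counts. Mir212 was at 1.27 ± 0.642 and 0.398 ± 0.213 RPKM with groups that overlapped (−0.93 ± 0.26, adjusted p = 0.0374), and it did not pass without control 10 (−0.80, adjusted p = 0.061). The libraries were selected for poly(A) RNA, so these reads come from longer transcripts over the loci and not from the mature microRNAs.

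**Figure D2:**
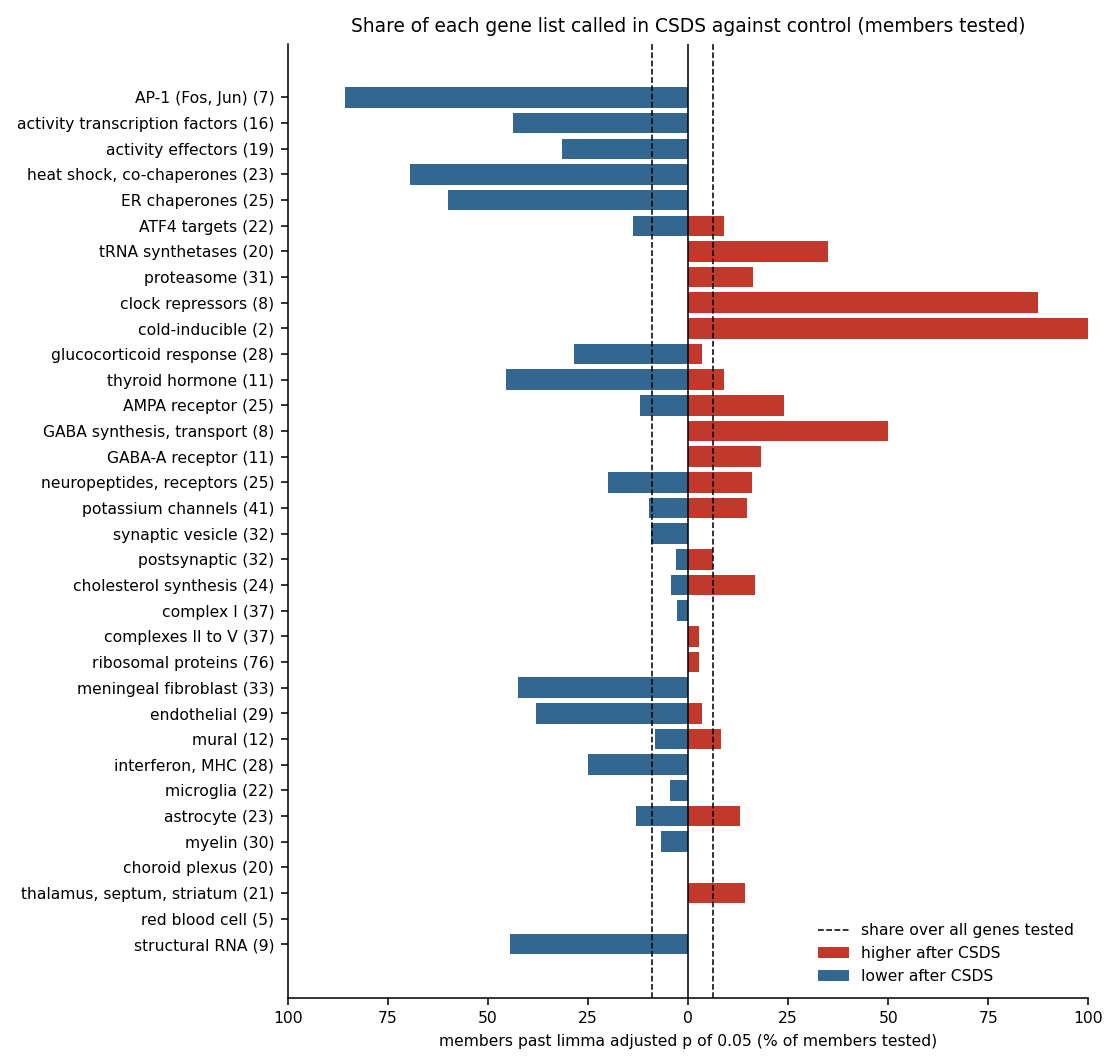
Share of the tested members (number in parentheses) of 34 gene lists that passed limma's adjusted p of 0.05, higher after CSDS to the right and lower to the left, in percent; dashed lines are the shares over all genes tested, 6.17% higher and 8.88% lower. The AP-1, heat shock and endoplasmic reticulum lists reach furthest to the left, and the clock repressor and cold-inducible lists furthest to the right.

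Genes for protein folding were lower after CSDS in the cytosol and in the endoplasmic reticulum. Of 23 heat shock proteins and co-chaperones tested 16 fell (69.6%, beside 8.88% of all genes) and 0 rose, with a median of −0.18. Of 25 endoplasmic reticulum chaperones and stress genes 15 fell (60%) and 0 rose, with a median of −0.19. Without control 10 the counts were 16 and 16, and with libraries 10B and 11 as CSDS they were 0 and 1. No library left out on its own moved either count by more than 1.5 times.

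In the cytosol, Chordc1, a cofactor of HSP90, was at 30.9, 30.7, 30.0, 30.0 and 30.2 RPKM in controls and at 22.0, 22.4, 25, 22.9 and 22.1 RPKM after CSDS. The controls lay within 1 RPKM of each other and all CSDS libraries were lower (−0.40 ± 0.04, limma adjusted p = 0.000271). Hsph1, the large HSP110 chaperone that acts as an exchange factor for HSP70, fell from 45.8 ± 2.55 to 37.2 ± 1.58 RPKM (−0.29), as did Hsp90aa1, the inducible cytosolic HSP90 (−0.22), and its activator Ahsa1 (−0.16). The small heat shock protein gene Hspb1 fell most, from 5.03 ± 1.19 to 2.84 ± 0.588 RPKM (−0.72 ± 0.16, adjusted p = 0.0144). The inducible HSP70 genes Hspa1a and Hspa1b changed by −0.35 and −0.38, and since they are near-identical copies their reads cannot be assigned with confidence to either. The J-domain co-chaperones Dnajb4 (−0.22), Dnajb5 (−0.21) and Dnaja1 (−0.20) fell, as did Bag3 (−0.36), Hspe1 (−0.20), Cacybp (−0.18), Hspa4l (−0.17), St13 (−0.14) and Hspa4 (−0.13). The constitutive HSP70 gene Hspa8, at 456 ± 31.7 and 412 ± 10.8 RPKM, did not pass (−0.15, adjusted p = 0.0688).

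In the endoplasmic reticulum, Hspa5 (ENSMUSG00000026864, chr2:34771970-34777547), which encodes the main chaperone BiP, was at 81.4, 79.2, 82.4, 78.9 and 97.8 RPKM in controls and at 53.5, 50.3, 60.6, 53.6 and 55.6 RPKM after CSDS. Control 10 was the highest, and the other 4 controls were also all above every CSDS library. The log2 fold change was −0.61 ± 0.06 (limma adjusted p = 0.000758), and −0.55 without control 10. Sdf2l1, a BiP-associated protein, fell from 8.00 ± 1.43 to 4.60 ± 0.761 RPKM (−0.73). The disulfide isomerase gene Pdia6 (−0.45), Xbp1, which switches on folding genes once its RNA is spliced (−0.41), and the secreted factors Manf and Creld2 (−0.40 each) fell. So did the chaperones and folding enzymes Calr (−0.35), Hsp90b1 (−0.34), Pdia3 (−0.27), Dnajc3 (−0.26), Dnajb11 (−0.24), Hyou1 (−0.19), Dnajb9 (−0.17) and Canx (−0.13), and the membrane selenoprotein gene Selenok (−0.16). The 10 that did not pass included Pdia4 (−0.24, adjusted p = 0.0523) and Herpud1 (−0.04, adjusted p = 0.54).

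The upstream bases of Hspa5 are shown because they hold the endoplasmic reticulum stress element, searched as CCAAT, 9 free bases and CCACG on either strand (RefSeq, GRCm38.p6, chr2:34771840-34772089, + strand, match in capitals).
Hspa5: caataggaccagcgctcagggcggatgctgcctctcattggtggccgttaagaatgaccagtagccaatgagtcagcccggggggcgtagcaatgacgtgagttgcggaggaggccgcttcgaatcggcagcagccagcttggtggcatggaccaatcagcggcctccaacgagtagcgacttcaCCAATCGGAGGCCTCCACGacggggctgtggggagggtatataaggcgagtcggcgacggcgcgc
The element was in the 300-base windows of 8 of the 22 endoplasmic reticulum genes with a promoter (36.4%), against 0.167% of tested genes and 0.119% of all promoters. The 8 were Calr, Canx, Creld2, Dnajc3, Hsp90b1, Hspa5, Pdia6 and Syvn1, and all but Syvn1 (−0.11, limma adjusted p = 0.103) fell. The heat shock element, searched as GAA, 2 free bases, TTC, 2 free bases and GAA on either strand, was in 4 of 18 heat shock genes (22.2%), against 0.562% of tested genes. Of the 4, Chordc1, Hsph1 and Hspe1 fell and Hspd1 did not pass. The call of Hspe1 ended when any of 5 libraries was left out.

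Other lists of protein handling were read beside these. Of 22 targets of the amino acid response factor ATF4 3 fell (13.6%, beside 8.88% of all genes) and 2 rose (9.09%, beside 6.17%). Nupr1 (−0.66), Cth (−0.33) and Pck2 (−0.21) fell, and the 2 that rose were asparagine synthetase Asns (0.17) and the lipoprotein receptor gene Vldlr (0.11). With any single library left out the 2 did not both pass: the count of higher genes was 0 without CSDS 1, 2, 4 or 5 or control 6 or 9, and 1 without any other. The amino acid response element TGATGCAAT was in the window of 1 of the 18 ATF4 targets with a promoter (5.56%), Nupr1, against 0.114% of tested genes. Of 20 aminoacyl-tRNA synthetases 7 rose (35%) and 0 fell (median 0.09), with Hars, which charges histidine tRNA, at 31.1 ± 1.43 and 36.1 ± 1.12 RPKM (0.21 ± 0.04, limma adjusted p = 0.00475), Lars at 0.16, Aars and Yars at 0.13, Gars at 0.11, Qars at 0.10 and Wars at 0.09. Their count was 4 without CSDS 2 or without CSDS 4. Of 31 proteasome genes 5 rose (16.1%) and 0 fell (median 0.07), namely the core subunit gene Psmb2 (0.19 ± 0.04) and the regulatory subunit genes Psmd4 (0.16), Psmc4 (0.15), Psmc2 (0.14) and Psmd2 (0.13). Control 10 was the highest control for Psmb2, at 36.6 against 32.6 to 33.5 RPKM, and 14 of the 31 rose without it. The count was 3 without controls 6, 7, 8 or 9, or without CSDS 1, 4 or 5.

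Repressors of the clock loop rose after CSDS, while its activators moved both ways. Of 8 clock repressors 7 rose and 0 fell, with a median of 0.30, beside 6.17% of all genes that rose. The count was 7 without control 10, and 2 with libraries 10B and 11 as CSDS. Dbp (ENSMUSG00000059824, chr7:45705088-45710203), an output transcription factor that binds D-boxes, was at 9.70, 9.29, 11.0, 9.91 and 10.9 RPKM in controls and at 19.0, 19.8, 18.8, 18.9 and 21.2 RPKM after CSDS. Its level was 1.92 times as high, with no overlap (0.91 ± 0.05, limma adjusted p = 2.77e-05). Ciart (ENSMUSG00000038550, chr3:95878503-95882251), a repressor of the CLOCK and ARNTL pair, was at 2.70, 2.19, 2.88, 3.03 and 3.04 RPKM in controls and at 6.44, 5.68, 5.17, 5.69 and 5.75 RPKM after CSDS (0.94 ± 0.08, adjusted p = 0.000252).

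The period and cryptochrome genes rose by less: Cry1 from 2.94 ± 0.335 to 3.98 ± 0.165 RPKM (0.39), Per3 by 0.34, Per2 from 5.77 ± 0.149 to 7.31 ± 0.484 RPKM (0.32), Cry2 by 0.28 and Per1, with overlapping groups, by 0.24. Bhlhe41, which also represses E-box genes, rose by 0.27, while its relative Bhlhe40 did not pass (−0.11, limma adjusted p = 0.0817). Of 4 activators 2 fell and 1 rose, with a median of −0.05: Arntl fell from 10.0 ± 0.547 to 8.00 ± 0.346 RPKM (−0.31) and Clock fell as well (−0.20), while Arntl2 rose by 0.24. Nfil3, which binds the same D-boxes as DBP and represses them, fell from 4.03 ± 0.561 to 2.5 ± 0.222 RPKM (−0.59 ± 0.09, adjusted p = 0.00246). Among the nuclear receptors of the loop Nr1d2 rose by 0.22 and Nr1d1 did not pass, at 55.3 ± 1.67 and 54.1 ± 1.74 RPKM (−0.03, adjusted p = 0.529).

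The upstream bases of Ciart are shown because the E-box CACGTG, a palindrome bound by the clock activators, occurs 3 times in them (RefSeq, GRCm38.p6, chr3:95882229-95882478, − strand, matches in capitals).
Ciart: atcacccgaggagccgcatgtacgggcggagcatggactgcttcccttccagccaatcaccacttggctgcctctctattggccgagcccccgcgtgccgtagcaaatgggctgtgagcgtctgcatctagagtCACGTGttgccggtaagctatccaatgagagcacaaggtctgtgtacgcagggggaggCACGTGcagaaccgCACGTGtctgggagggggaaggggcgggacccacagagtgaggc
The E-box was in the windows of 5 of the 18 clock genes with a promoter (27.8%), against 11.3% of tested genes and 7.15% of all promoters. Of these 5, 4 rose, namely Bhlhe41, Ciart, Cry1 and Per1. The core of the element bound by the ROR and NR1D receptors, AGGTCA on either strand, was in 5 of the 18 (27.8%), namely Arntl, Clock, Nfil3, Nr1d2 and Per1, against 15.1% of tested genes. The first 3 of these fell and the other 2 rose.

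Both genes of the cold-inducible list, RNA-binding proteins whose level follows body temperature through the day, rose. Rbm3 was at 12.1, 13.9, 15.8, 15.1 and 14.1 RPKM in controls and at 21.3, 23, 19.9, 22.8 and 20.8 RPKM after CSDS (0.59 ± 0.07, limma adjusted p = 0.000973). Cirbp was at 13, 15.4, 16.7, 14.8 and 15 RPKM in controls and at 20.5, 23.4, 20.1, 22.9 and 20.3 RPKM after CSDS (0.50 ± 0.07, adjusted p = 0.00159). Neither gene's groups overlapped, and libraries 10B and 11 had control levels of both, at 13.1 and 14.4 RPKM of Rbm3 and 16.1 and 14.7 RPKM of Cirbp. Rbm3os, which overlaps Rbm3 on the X chromosome, rose by 0.93, and without strand the reads of this pair cannot be told apart.

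**Figure D3:**
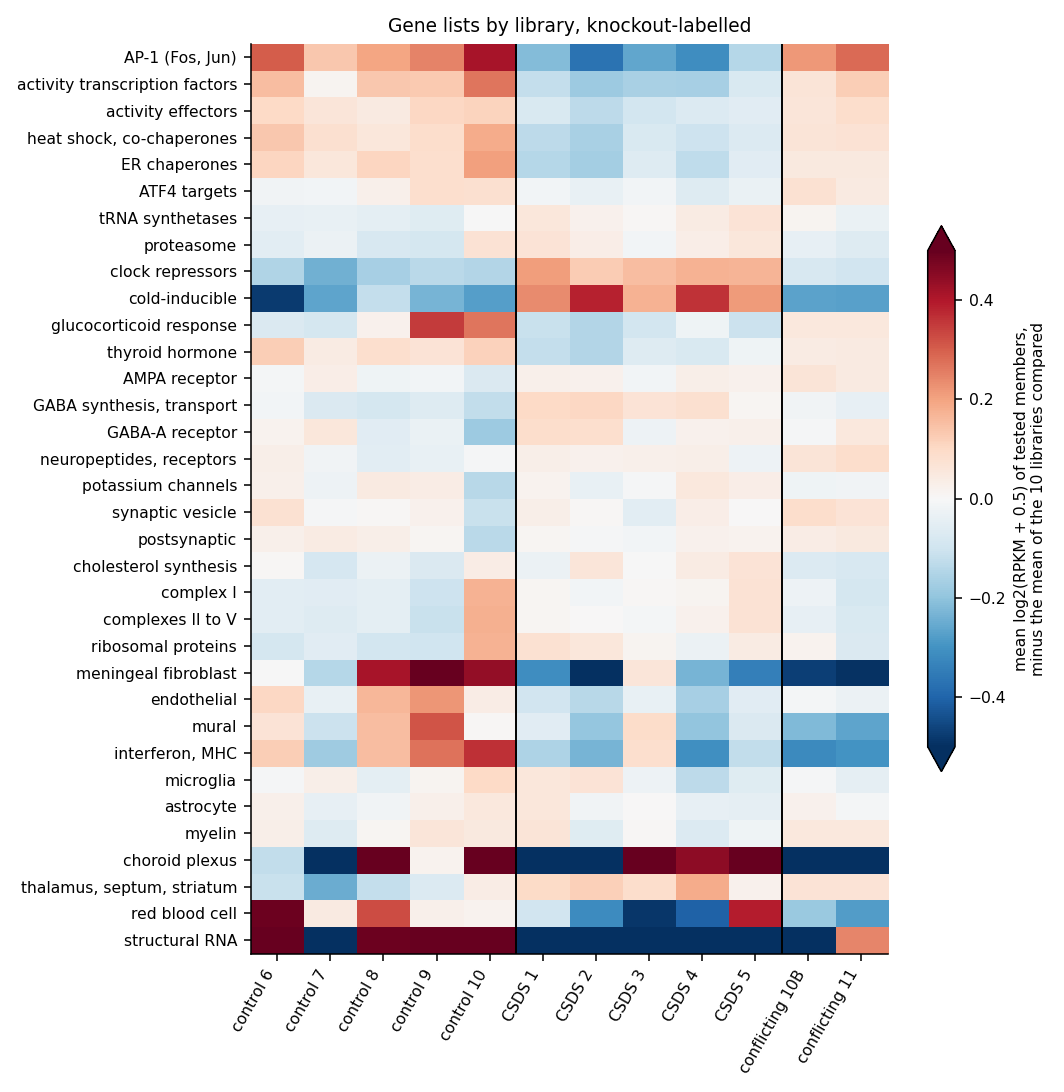
Mean log2(RPKM + 0.5) of the tested members of 34 gene lists in each of the 12 knockout-labelled libraries, as the difference from the mean over the 10 libraries compared (colour, cut at −0.5 and 0.5; values beyond are drawn in the end colours). The AP-1, activity, heat shock, endoplasmic reticulum and clock repressor lists split controls from CSDS libraries, control 10 is the highest library on the respiratory and ribosomal lists, and controls 9 and 10 are high on the glucocorticoid list.

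Glucocorticoid receptors and responsive genes were mostly lower after CSDS where they changed. Of 28 tested 8 fell (28.6%, beside 8.88% of all genes) and 1 rose (3.57%, beside 6.17%), with a median of −0.18. Without control 10, 8 fell and 3 rose. Cdkn1a, an inhibitor of the cell cycle, was at 2.98, 2.65, 3.16, 5.32 and 4.83 RPKM in controls and at 2.05, 1.95, 1.74, 1.98 and 1.95 RPKM after CSDS (−0.77 ± 0.16, limma adjusted p = 0.0107). Controls 9 and 10 were highest, and the other 3 were also above every CSDS library. Angptl4, a secreted inhibitor of lipoprotein lipase, fell from 1.09 ± 0.340 to 0.412 ± 0.0926 RPKM (−0.78), with Gjb6 at −0.55, Ddit4, an inhibitor of mTOR signalling, at −0.41, Pdk4 at −0.38, Errfi1 at −0.29, Arrdc3 at −0.21 and Klf9 at −0.17. Per1 was the member that rose, a call that ended when any of 7 libraries was left out. The 2 classic targets Sgk1 and Fkbp5 did not pass: Sgk1 was at 10.5, 11.7, 14.3, 24.8 and 25.8 RPKM in controls and 14.3 to 17.2 RPKM after CSDS (−0.05, adjusted p = 0.908), and Fkbp5 was at 9.42 ± 1.14 and 8.60 ± 0.458 RPKM (−0.12, adjusted p = 0.286). The spread of Sgk1 lay within the controls, where 9 and 10 were more than 2 times as high as 6 and 7, while the 5 CSDS libraries were close together. The whole list was split in the same way: mean log2 deviations were −0.07, −0.09, 0.02, 0.35 and 0.27 in controls 6 to 10 and −0.15 to −0.02 after CSDS. Its summed level overlapped, at 536 to 712 RPKM in controls (median 564) and 572 to 621 RPKM after CSDS (median 594). The full glucocorticoid response element, AGAACA, 3 free bases and TGTTCT, was in the window of 1 of the 23 genes with a promoter (4.35%), Sgk1. The share over tested genes, 0.00878%, is Sgk1 itself, so it gives no contrast. None of the genes that passed held the element.

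Thyroid hormone genes were lower at the deiodinases. Dio3 (ENSMUSG00000075707, chr12:110279068-110281097), the enzyme that inactivates the hormone, was at 3.57, 3.27, 2.80, 2.78 and 3.11 RPKM in controls and at 1.09, 1.34, 1.32, 1.54 and 1.19 RPKM after CSDS. It fell by 1.00 ± 0.08 on the log2 scale with no overlap (limma adjusted p = 0.000218). Dio2, the activating enzyme of glia, fell from 11.0 ± 0.760 to 8.18 ± 0.738 RPKM (−0.41 ± 0.06, adjusted p = 0.00343). Among 11 thyroid hormone genes there were 5 that fell (45.5%, beside 8.88% of all genes) and 1 that rose (9.09%, beside 6.17%): besides the deiodinases, the hormone-responsive genes Nrgn (−0.20) and Klf9 and the receptor gene Thra (−0.11) fell, and the receptor gene Thrb rose by 0.18, a call that ended when any of 8 libraries was left out.

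Genes of GABA synthesis and storage were higher after CSDS. Of 8 genes for GABA synthesis, transport and GABA-B receptors 4 rose (50%, beside 6.17% of all genes) and 0 fell, with a median of 0.15. Gad1, which makes most GABA, was at 36.3, 34.7, 34.3, 35.3 and 33.3 RPKM in controls and at 43.7, 43.0, 41.6, 40.7 and 40.1 RPKM after CSDS (0.26 ± 0.03, limma adjusted p = 0.00128). Gad2, its synaptic form, was at 23, 22.4, 22.3, 23.4 and 21.6 RPKM in controls and at 29.2, 30.4, 29.0, 27.7 and 24.8 RPKM after CSDS (0.31 ± 0.05, adjusted p = 0.0036). No CSDS library fell within the control range of either gene. The vesicular transporter gene Slc32a1 rose by 0.26 with overlapping groups and Abat, which breaks GABA down, by 0.16. In WT, 0 of the 8 rose, and the difference between the effects did not pass for Gad1 (0.26, adjusted p = 0.19) or Gad2 (0.25, adjusted p = 0.44).

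Of 11 GABA-A receptor subunits 2 rose (18.2%, beside 6.17% of all genes) and 0 fell, Gabrd, the delta subunit of extrasynaptic receptors, at 6.64 ± 0.507 and 8.18 ± 0.499 RPKM (0.28 ± 0.06, limma adjusted p = 0.00999), and Gabra4 at 0.12, a count that was 1 without CSDS 1, 2 or 5 or control 6. Of 16 interneuron markers Npy rose (0.19) and Nos1 (−0.33) and Crh (−0.31) fell, shares of 6.25% and 12.5% beside 6.17% and 8.88% of all genes. The Npy call ended without CSDS 2, 4 or 5 or control 6, 8 or 9, the 2 lower were 1 without CSDS 4 or control 9 and 4 without control 10, and the summed level of the list was 536 to 622 RPKM in controls and 539 to 573 RPKM after CSDS. Some markers of the neighbouring thalamus, septum and striatum were higher after CSDS as well. Of 21 such genes 3 rose (14.3%) and 0 fell (median 0.19): Prkcd of the thalamus, at 4.12, 4.14, 4.05, 4.06 and 5.83 RPKM in controls and at 6.28, 7.88, 7.29, 6.85 and 6.23 RPKM after CSDS (0.59 ± 0.10, adjusted p = 0.00448), Zic1 (0.81, overlapping groups) and Trpc4 (0.19). Drd2 of the striatum (0.41, limma adjusted p = 0.101) did not pass. Their summed level was 128 to 142 RPKM in controls and 142 to 164 RPKM after CSDS. Of the 21, 5 rose without control 10 and 2 without CSDS 2, CSDS 4, control 6 or control 8. The part of neighbouring tissue in the values of the GABA genes and of the neuronal genes that follow was not tested.

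The glutamate receptor genes that changed were mostly those of auxiliary subunits and assembly partners. Of 25 genes for AMPA receptors and their partners, 6 rose (24%, beside 6.17% of all genes) and 3 fell (12%, beside 8.88%). Of 6 NMDA receptor subunits 0 changed by limma, with 2 at an unadjusted p under 0.05. Cacng5 (ENSMUSG00000040373, chr11:107874605-107915055), an auxiliary subunit that is strong in CA2, was at 1.96, 2.45, 2.05, 2.63 and 3.17 RPKM in controls and at 4.17, 4.52, 4.02, 4.97 and 3.77 RPKM after CSDS. The lowest CSDS library was above control 10, the highest control (0.71 ± 0.11, adjusted p = 0.00321). Its relatives Cacng3 (0.23) and Cacng4 (0.21), the auxiliary gene Cnih3 (0.23), Cpt1c (0.16) and Porcn (0.10), which act in receptor assembly, rose, while Cacng2 (−0.20), Olfm1 (−0.17) and Nptx1 fell. The pore subunit gene Gria2, at 129 ± 10.1 and 123 ± 1.58 RPKM, did not pass (−0.07, adjusted p = 0.341). The 6 higher were 3 without CSDS 2 or without CSDS 4, and the 3 lower were 5 without control 10. Other single receptor genes were Grm8 (0.29) and Grik5 (0.13), higher, and the kainate receptor partner Neto2 (−0.27), lower. The calls of Grm8 and Grik5 ended when any of 6 and of 7 libraries was left out.

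Of 41 potassium channel genes 6 rose (14.6%, beside 6.17% of all genes) and 4 fell (9.76%, beside 8.88%). The inward rectifier gene Kcnj2 was at 1.96, 1.81, 2.02, 1.95 and 1.74 RPKM in controls and at 3.32, 3.52, 2.70, 3.35 and 2.72 RPKM after CSDS (0.59 ± 0.07, limma adjusted p = 0.00128). All CSDS libraries were above all controls, and libraries 10B and 11 lay between, at 2.30 and 2.34 RPKM. A second inward rectifier gene, Kcnj4, rose from 19.5 ± 0.902 to 24.7 ± 1.42 RPKM (0.33), the A-type channel gene Kcna4 from 4.30 ± 0.196 to 5.82 ± 0.530 RPKM (0.39), and Kcnt1, Kcnv1 and Kcnh3 by 0.29, 0.16 and 0.15. Kcng1 (−0.24), Kcns2 (−0.23), Kcnc2 (−0.17) and Kcnn2 (−0.14) fell. The 6 higher were 3 without CSDS 2, CSDS 4 or control 6, and the 4 lower were 8 without control 10. Of 26 sodium, calcium and HCN channel genes 11.5% passed, near the 15% of all genes: 3.85% rose (beside 6.17%) and 7.69% fell (beside 8.88%). The calcium channel subunit gene Cacna2d2 rose from 4.05 ± 0.341 to 6.20 ± 0.885 RPKM (0.55), and Cacna1i (−0.26) and Cacnb3 (−0.10) fell, a count of 2 that was 5 without control 10 and 1 without CSDS 1, CSDS 2, control 6 or control 9.

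Of 25 neuropeptide and receptor genes 4 rose (16%, beside 6.17% of all genes) and 5 fell (20%, beside 8.88%). Penk, the enkephalin precursor, rose by 0.36, Npy by 0.19 and its receptor gene Npy1r by 0.19, while the stress peptide gene Crh, the oxytocin receptor gene Oxtr (−0.25) and the somatostatin receptor genes Sstr4 (−0.29), Sstr1 (−0.25) and Sstr2 (−0.23) fell. Glp1r, the receptor of the incretin GLP-1, was at 0.548, 0.712, 0.585, 0.916 and 1.49 RPKM in controls and at 2.28, 2.00, 2.21, 2.01 and 1.29 RPKM after CSDS (0.89 ± 0.18, limma adjusted p = 0.0105). Control 10 and CSDS 5 crossed, and without control 10 the difference was 1.04. The count of higher genes was 1 without CSDS 2, CSDS 4 or control 8 and 2 without CSDS 1, CSDS 5, control 6 or control 9, and that of lower genes 3 without CSDS 4 or control 9. Of 11 serotonin receptor genes Htr1a fell by 0.26 (9.09%, near the share of all genes). Of 32 vesicle and release genes 3 fell (9.38%, near the 8.88% of all genes) and 0 rose, Doc2b, a calcium sensor of spontaneous release, from 23.1 ± 2.34 to 17.1 ± 2.00 RPKM (−0.42), Syt4 (−0.25) and Syn2 (−0.21), and without control 10 5 fell. Of 32 postsynaptic genes Camk2b (0.18) and Lrrtm4 (0.13) rose and Nrgn fell (9.38% together, beside 15% of all genes). The 2 higher were 0 without CSDS 4, CSDS 5 or control 6 and 1 without CSDS 1, 2 or 3 or control 8 or 9, and the 1 lower was 4 without control 10.

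Control 10 decided whether genes of translation and respiration passed. Of 76 cytosolic ribosomal protein genes 2 rose (2.63%, beside 6.17% of all genes), Rpl7a and Rpl14 (0.18 each), and 0 fell, but without control 10 46 rose. Rpl14 was at 149, 142, 144, 142 and 164 RPKM in controls and at 172, 171, 167, 161 and 165 RPKM after CSDS (limma adjusted p = 0.0196, and 0.0017 without control 10). In the other 4 controls it was below every CSDS library, and control 10 lay within the CSDS range. Of 37 complex I genes 0 rose and Ndufb2 fell by 0.29, and of 37 genes of complexes II to V Sdhb rose by 0.15 and 0 fell. Without control 10 13 and 15 rose. The medians of these 3 lists were 0.07, 0.05 and 0.05. Of 13 genes of the mitochondrial genome 0 changed by limma, with 1 at an unadjusted p under 0.05.

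Lipid and sugar metabolism held a few small rises. Of 24 cholesterol synthesis and uptake genes 4 rose (16.7%, beside 6.17% of all genes) and 1 fell (4.17%, beside 8.88%). Among them lanosterol synthase Lss, at 3.45, 3.17, 3.46, 3.41 and 3.37 RPKM in controls and at 4.31, 4.56, 4.20, 4.59 and 4.32 RPKM after CSDS (0.34 ± 0.04, limma adjusted p = 0.000841), Nsdhl (0.21) and Fdps (0.15) rose and Idi1 fell by 0.18. The groups for Lss did not overlap. Of 11 fatty acid synthesis genes Srebf1, which drives them (0.26), Fads1 (0.21) and Scd1 (0.14) rose (27.3% together) and 0 fell. Of 18 glycolysis genes Gpi1 (0.16), Pfkm (0.15) and Aldoc (0.12) rose (16.7% together) and the neuronal glucose transporter gene Slc2a3 fell by 0.11 (5.56%). The calls of Idi1 and Slc2a3 ended when any of 6 and of 8 libraries was left out. Without control 10 8 cholesterol genes and 8 glycolysis genes rose, and without CSDS 5 or control 9 2 cholesterol genes rose.

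Markers of meningeal fibroblasts were lower after CSDS, with larger differences than the neuronal groups. Of 33 tested 14 fell (42.4%, beside 8.88% of all genes) and 0 rose, with a median of −0.58, and 32 of the 33 had a negative difference. Slc6a13, a GABA and taurine transporter of the meninges, was at 4.41, 4.53, 6.40, 10.6 and 7.62 RPKM in controls and at 2.51, 1.42, 3.36, 2.16 and 1.69 RPKM after CSDS (−1.38 ± 0.25, limma adjusted p = 0.00602). The matrix proteoglycan gene Dcn (ENSMUSG00000019929, chr10:97479609-97518143) was at 33.5, 29.8, 34.0, 36.0 and 37.6 RPKM in controls and at 20.4, 19.3, 21.0, 19.6 and 17.3 RPKM after CSDS (−0.79 ± 0.07, adjusted p = 0.000252). For both genes every control was above every CSDS library, by little for Slc6a13 and by a wide margin for Dcn.

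Aldh1a2, which makes retinoic acid (−0.94), the proteoglycan genes Ogn (−0.92) and Lum (−0.72), Asgr1 (−0.90), the connexin gene Gjb2 (−0.86), the transporter gene Slc6a20a (−0.85), the collagen genes Col3a1 (−0.71) and Col1a1 (−0.70), and the transcription factor genes Foxc1 (−0.47) and Tbx18 (−0.40) also fell, as did Nupr1 and Vtn, which are on other lists too. The most abundant marker, Ptgds, was at 326 to 846 RPKM in controls and 166 to 398 RPKM after CSDS and did not pass (−0.87, limma adjusted p = 0.0724). The summed level of the list was 536, 499, 821, 1202 and 860 RPKM in controls and 469, 287, 626, 475 and 400 RPKM after CSDS, so the groups overlapped through CSDS 3, and libraries 10B and 11 had 373 and 351 RPKM. The count was 8 without CSDS 4, 9 without control 8, 12 without control 10, 15 without CSDS 3 and 18 without control 7. It was 9 with libraries 10B and 11 as CSDS. In WT 1 of these genes rose and 0 fell, with a median of 0.45. The difference between the effects did not pass for Slc6a13 (−1.78, adjusted p = 0.14) or Dcn (−0.84, adjusted p = 0.14).

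Vessel markers were lower as well. Of 29 endothelial genes 11 fell (37.9%, beside 8.88% of all genes) and 1 rose (3.45%, beside 6.17%), with a median of −0.17. Cldn5 (ENSMUSG00000041378, chr16:18776847-18778262), the main claudin of the tight junctions of the blood-brain barrier, was at 25.8, 21.2, 24.8, 22.7 and 19.8 RPKM in controls and at 11.9, 12.4, 14.8, 10.6 and 14.1 RPKM after CSDS. The groups did not overlap (−0.82 ± 0.10, limma adjusted p = 0.000996). The adhesion genes Cdh5 (−0.38), Pecam1 (−0.32) and Esam (−0.26), the transcription factor gene Sox18 (−0.46), the lactate transporter gene Slc16a1 (−0.41), the VEGF receptor gene Flt1 (−0.33), Ctla2a (−0.42), Ly6a (−0.36), Itm2a (−0.24) and Ly6c1 (−0.18) fell, and the organic anion transporter gene Slco1a4 rose by 0.22. With single libraries left out 8 to 12 fell and 0 to 1 rose. The calls of Flt1 and Ly6c1 each ended without any of 9 libraries, that of Slco1a4 without any of 7 and that of Itm2a without any of 5. The summed level of the endothelial list was 228 to 280 RPKM in controls and 213 to 227 RPKM after CSDS. In WT 5 endothelial genes rose and 3 fell, with a median of 0.02, and Cldn5 was among those that fell (−0.48, adjusted p = 0.0013). With libraries 10B and 11 as CSDS the list kept 2 of its calls. Of 12 mural cell genes Cspg4 rose (0.21) and Vtn fell (−0.43), 8.33% each way beside 6.17% and 8.88% of all genes. Both calls ended without CSDS 1, 2, 4 or 5 or without control 6, while 3 fell without control 7.

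**Figure D4:**
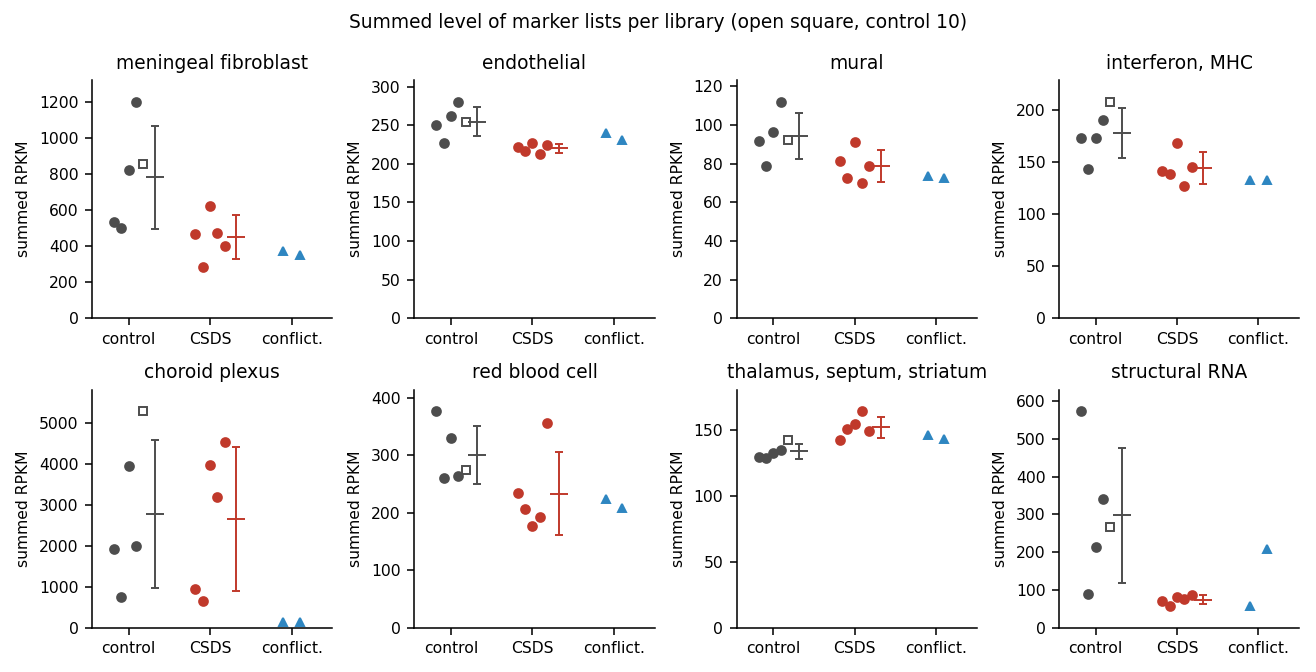
Summed RPKM of 8 marker lists in each knockout-labelled library: 5 controls (grey, control 10 as an open square), 5 CSDS libraries (red) and libraries 10B and 11 of conflicting label (blue triangles); bars are means with the SD over 5 libraries. The structural RNA sums do not overlap, the fibroblast, mural, interferon, choroid plexus and red blood cell sums do, and libraries 10B and 11 have the lowest choroid plexus sums.

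Interferon response and antigen presentation genes were lower in part. Of 28 tested 7 fell (25%, beside 8.88% of all genes) and 0 rose, with a median of −0.28, and in 5 of the 7 the groups overlapped. The antigen presentation genes H2-Ab1 (−0.72), H2-D1 (−0.35), B2m (−0.29) and H2-T23 (−0.28) and the interferon-induced genes Usp18 (−0.59) and Irf7 (−0.37) were among those that fell. The count depended on single libraries: it was 14 without control 7, 5 without control 10, 4 without control 8, 3 without CSDS 5, 2 without CSDS 2 or control 6, and 1 without CSDS 1, CSDS 4 or control 9. These genes are also read in vessels and meninges, whose markers were lower in the same libraries, and the part of those cells in their values was not tested.

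Glial genes passed about as often as all genes, 12 of 88 (13.6%) beside 15%. Of 23 astrocyte genes 3 rose and 3 fell: the connexin genes Gjb6, from 25.3 ± 3.99 to 17.1 ± 1.61 RPKM (−0.55 ± 0.10, limma adjusted p = 0.0065), and Gja1 (−0.24) and the water channel gene Aqp4 (−0.33) fell, and Acsbg1 (0.17), Fgfr3 (0.15) and Aldoc rose. Of 22 microglia genes C1qa fell (−0.21) and 0 rose, of 30 myelin genes Ugt8a (−0.24) and Gjc3 (−0.14) fell and 0 rose, and of 13 oligodendrocyte precursor genes Cspg4 and Cacng4 rose and Nnat, a neuronatin that neurons express as well, fell (−0.43). The astrocyte count of 3 higher was 1 without CSDS 1, 3 or 4 or without control 7, 8 or 9, and the C1qa call ended when any of 8 libraries was left out. Of the other 2-gene counts, that of myelin was 1 without any CSDS library but CSDS 1 or without control 6, 8 or 9, and that of precursor genes that rose was 1 without any CSDS library or without control 6 or 7.

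Of 36 markers of the hippocampal fields 8 passed (22.2%), beside 15% of all genes. Of 12 dentate genes Pdzd2 rose (0.28) and Stxbp6 fell (−0.18), of 10 CA1 genes Dkk3 (−0.20) and Ccn3 (−0.16) fell, and of 14 CA2 and CA3 genes Cacng5 and Necab2 (0.18) rose and Cdh24 (−0.29) and Nectin3 (−0.21) fell. Single libraries decided most of these calls: the 2 lower genes of CA1, and those of CA2 and CA3, were 0 without CSDS 1, control 6 or control 7, and the 2 dentate genes were both lost without CSDS 1, 2, 3 or 4 or control 7. Of 11 markers of new neurons Igfbpl1 rose by 0.35 (9.09%, beside 6.17% of all genes) and 0 fell. Its call ended when any of 8 of the 10 libraries was left out, with adjusted p up to 0.089 by limma, and without control 10 the count was 2. Of 20 choroid plexus genes 0 passed by limma, with 0 at an unadjusted p under 0.05, and their summed level ranged from 758 to 5289 RPKM in controls and from 658 to 4532 RPKM after CSDS, against 140 and 135 RPKM in libraries 10B and 11. Of 5 red blood cell genes 0 passed by limma, with 2 at an unadjusted p under 0.05 and a median of −0.33. Without CSDS 5, whose summed level was 356 RPKM against 178 to 235 RPKM in the other CSDS libraries, 4 of the 5 fell. In WT all 5 rose, with a median of 1.72. Wnt9a, a Wnt ligand, was at 1.58, 1.24, 1.35, 1.24 and 1.13 RPKM in controls and at 2.98, 3.27, 2.56, 2.56 and 2.5 RPKM after CSDS (0.86 ± 0.08, limma adjusted p = 0.000434). It rose without overlap, as 1 of 16 Wnt pathway genes (6.25%, beside 6.17% of all genes). The Wnt genes Wnt5a (−0.31) and Wnt7a (−0.24), the Wnt enhancer gene Rspo3 (−0.25) and Dkk3 fell (25%, beside 8.88%). Those 4 lower genes were 2 without CSDS 1, 2 or 4 or without control 6, 8 or 9.

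The largest decreases were on structural RNA genes, whose RNAs carry no poly(A) tail and should be rare in these libraries. The 7SK RNA gene Rn7sk was at 36.2, 9.20, 11.4, 24.4 and 17.3 RPKM in controls and at 4.98, 5.33, 5.38, 4.01 and 5.75 RPKM after CSDS (−1.69 ± 0.31, limma adjusted p = 0.00686). Controls varied widely and CSDS libraries did not. Of 9 structural RNA genes tested 4 fell (44.4%, beside 8.88% of all genes) and 0 rose (median −1.26). These were the 5.8S ribosomal RNA gene n-R5-8s1 (−2.88), the U1 gene Rnu1a1 (−1.83), Rn7sk and Rmrp (−1.26), all but Rn7sk with overlapping groups. The summed level of the structural RNA list was 573, 88.6, 214, 342 and 267 RPKM in controls 6 to 10 and 69.9, 56.1, 82.3, 76.6 and 85.9 RPKM after CSDS. The count was 9 without control 7, whose sum was near the CSDS libraries, 3 without control 10 or CSDS 4 and 2 without any other single library. Libraries 10B and 11, whose labels conflict, had 57.8 and 208 RPKM, one near each group. Over the 10 libraries compared, the structural RNA level was lower in the same group as the activity and chaperone genes, and its part in their values was not tested.

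Of the 12 largest decreases under the rule for named genes, 6 were small nuclear RNA copies on chromosome 12 (Gm26444, Gm22634, Gm23804, Gm22317, Gm25679 and Gm22513, −1.98 to −1.80), 3 were copies of other small RNAs (Gm26035, Gm26315 and Gm24447, −1.72 to −1.65), and the rest were Rn7sk, Mir132 and Gm42418, a noncoding gene of chromosome 17 that overlaps ribosomal RNA sequence, which fell from 1181 ± 475 to 355 ± 64.9 RPKM (−1.63 ± 0.28, limma adjusted p = 0.00524). Reads on such copies cannot be assigned to 1 gene. The 12 largest increases were Gm23711 (1.14), Mir491 (1.12), Gm10156 (1.05), Gm22121 (0.99), Ciart, Rbm3os, Dbp, the phospholipase gene Pla2g4e, from 0.551 ± 0.0748 to 1.47 ± 0.203 RPKM (0.91), Wnt9a, Gm26498 (0.78), the mucin gene Muc3a (0.77) and Cacng5.

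Of 503 microRNA loci tested 43 passed by limma, 22 higher and 21 lower, beside 15% of all genes. Of those with a Mir symbol, 26 in all and 25 found in RefSeq, Mir22 was at 27.9, 26.7, 28.6, 20 and 21.4 RPKM in controls and at 35.2, 34.7, 32.7, 36.5 and 38.4 RPKM after CSDS (0.52 ± 0.10, adjusted p = 0.00787). Its host gene Mir22hg, whose reads overlap the locus, rose as well, by 0.27.

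The same comparison in WT libraries, 5 controls and 5 CSDS libraries after the same 10 days, was used to ask where the knockout-labelled effect differs. In WT 4093 of 18274 genes passed by limma (22.4%), 1806 higher (9.88%) and 2287 lower (12.5%). Of the 2747 genes called here, 1525 were called in WT in the same direction, 55.5% of these calls and 37.3% of the WT calls, and 10 were called in opposite directions. The 2 comparisons share no library, and 90.9% of the genes called here had the same sign in WT. A call in 1 genotype label and not in the other does not show a difference, which was tested with an interaction contrast over 20 libraries.

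That contrast called 27 of 18263 genes (0.148%), 11 with the knockout-labelled effect above the WT effect (0.0602%) and 16 below (0.0876%). The activity, chaperone and clock lists held 0 of the 27: Fosb differed by 0.10 (limma adjusted p = 0.62), Homer1 by 0.22 (adjusted p = 0.36), Hspa5 by 0.18 (adjusted p = 0.56), Dbp by 0.19 (adjusted p = 0.43) and Ciart by 0.24 (adjusted p = 0.51). The mural and microglia lists each held 1, with the knockout-labelled effect below the WT effect. The 8 named genes of smallest p all changed in WT, and 3 of them, Wdfy1, Adi1 and B230217O12Rik, passed for the knockout label. Pisd-ps1, a pseudogene copy of Pisd, which encodes phosphatidylserine decarboxylase, changed by 0.32 here and 2.07 in WT (difference −1.74 ± 0.22, adjusted p = 0.000532), Pisd-ps2 by 0.32 and 1.91, Pisd by 0.12 and 0.83 and Gm20671, which overlaps Pisd, by 0.08 and 0.70. These 4 loci share sequence or position, so they are not independent.

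Wdfy1 rose in both, by 0.14 here and by 0.96 in WT (difference −0.81 ± 0.10, limma adjusted p = 0.000528). The methionine salvage gene Adi1 fell by 0.14 here, with groups at 11.3 to 12.6 RPKM in controls and 9.96 to 11.2 RPKM after CSDS, and rose by 0.60 in WT. Within the knockout label the Adi1 call ended when any of 9 libraries was left out, and that of Wdfy1 when any of 5 was. The noncoding gene B230217O12Rik was at 4.31, 4.21, 4.26, 4.26 and 4.51 RPKM in controls and at 5.09, 4.95, 4.88, 5.39 and 5.32 RPKM after CSDS, a rise of 0.23, against −0.51 in WT (difference 0.73 ± 0.08, adjusted p = 0.000133). Its groups did not overlap here. The mitochondrial tRNA gene mt-Tg changed by −0.15 here and −1.22 in WT. Rec8, a meiotic cohesin gene that lies under the level set for named genes and was chosen after its values were seen, had the smallest p of the contrast, with 0.67 here and −1.32 in WT (difference 1.99 ± 0.18, adjusted p = 3.6e-05).

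The count of 27 rested on single libraries: it was 245 without WT control 10, the one WT library with the female pattern (56.5 RPKM of Xist), 68 without WT control 8, 17 without CSDS 1 of the knockout label and 16 without WT control 9. With the libraries of conflicting label as CSDS it was 1, and as control 98.

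**Figure D5:**
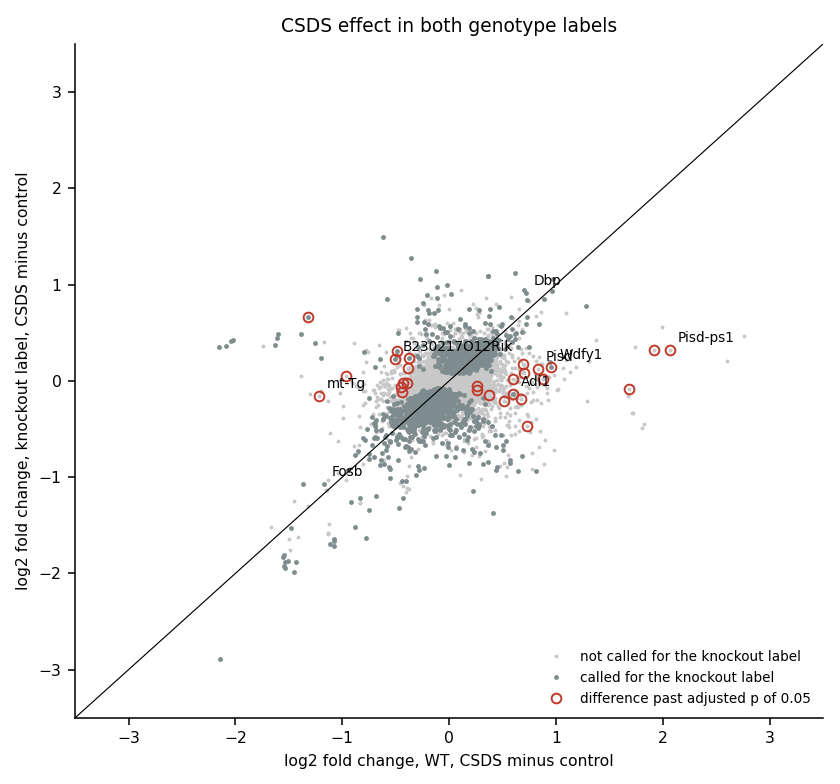
Log2 fold change of CSDS against control in knockout-labelled libraries (vertical) and in WT libraries (horizontal) for 18086 genes tested in both; dark points passed for the knockout label, open red circles are the 27 genes whose effects differ by limma's adjusted p under 0.05, and the diagonal marks equal effects. Fosb and Dbp lie near the diagonal, and Pisd-ps1, Wdfy1, Pisd and Adi1 lie to its right.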

How the data were processed

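RNA of mouse hippocampus was extracted with the RNeasy Lipid Tissue kit, and poly(A) libraries were made with TruSeq RNA V2, which keeps no strand, and read as 75 bp single ends, per the labels' protocols. STAR and mm10 are named, per the submitters' processing notes. Neither a version of STAR nor the annotation or counting step is given in the sources used here. The authors deposited RPKM per library, a log2 fold change written as control over CSDS, a likelihood ratio score, a p-value and an FDR, per the file headers.

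Since RPKM are not counts, limma 3.58.1 (R 4.3.3) was fitted with a mean trend to log2(RPKM + 0.5) of genes with a mean of at least 0.5 RPKM over the 10 libraries, with Benjamini-Hochberg adjustment at 0.05. The difference from WT was an interaction contrast over 20 libraries. Depth was estimated from the value of 1 read in single-exon genes, and 94.2 to 95.0% of values came out whole within 0.05 reads. Depth limits what low genes can show. The fits were tested on simulated data. Pseudocounts, filters, scaling, weights, the place of the conflicting libraries and single libraries were varied.

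Of 39017 gene IDs 37693 matched GENCODE vM21 (96.6%). Sequences are from RefSeq, GRCm38.p6. The members and the 54 gene lists were chosen with earlier results of these data known, and the motifs and the 3 printed promoters after expression values and promoter letters had been seen.

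Named genes were the target and its paralog, the 15 of smallest p, the 12 highest and 12 lowest called genes without overlap (all with a mean of at least 1 RPKM and a symbol), the called members of each list and the 4 of smallest p, further members as not passing, called microRNA loci, the 8 genes of smallest p for the difference from WT, and Xist and Ddx3y. A few genes that this rule would name are not reported here. Marker genes and genes given with a motif were added to these. The authors' deposited table has 3055 of 17840 genes at an FDR under 0.05, 2101 of them called here and all 2101 in the same direction. The authors' control mean for the knockout label includes libraries 10B and 11.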

Additional observations from a re-analysis of the deposited data

Results flagged for a closer look

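Among the named genes, single libraries that lay far from the 4 others of their group were looked for in 552 groups of 5, where chance alone flags about 1 in 20 groups; 31 were found, 18 of them control 10. Control 10 was above the other controls for Xist (48.2 RPKM), Hspa5 (97.8), Pdia6 (32.7), Manf (11.9), Selenok (60.8), Psmb2 (36.6), Psmd4 (27.6), Psmc4 (29.4), Psmc2 (16.1), Prkcd (5.83), Drd2 (1.14) and Rpl7a (88.7 RPKM). It was below them for Ddx3y (0.499 RPKM), Clock (11.9), Nos1 (7.85), Cacng2 (6.91), Neto2 (7.77) and Cacna1i (6.35 RPKM). Control 9 stood above the others for Klf9 (42.6) and Fkbp5 (11.4 RPKM), and control 7 below for Fgfr3 (13.1) and above for Mir22hg (11.9 RPKM).

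Among the CSDS libraries, CSDS 1 was the lowest for Egr4 (2.87) and Fads1 (61.2 RPKM), CSDS 2 the lowest for Psmc4 (28.1) and the highest for Syt4 (35.8 RPKM), CSDS 3 the lowest for Arntl (7.38) and the highest for Pdk4 (2.78 RPKM), CSDS 4 the lowest for Stxbp6 (15.9 RPKM), and CSDS 5 the highest for Ier2 (2.09) and the lowest for Glp1r (1.29 RPKM).

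For 9 named genes the effect of CSDS differed between the knockout label and WT by limma's interaction contrast, given as the knockout-labelled minus the WT log2 fold change: Rec8 (1.99), mt-Tg (1.07), B230217O12Rik (0.733), Gm20671 (−0.618), Pisd (−0.711), Adi1 (−0.739), Wdfy1 (−0.814), Pisd-ps2 (−1.59) and Pisd-ps1 (−1.74).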

How the results depend on the processing

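The count of 2747 genes called was 2746 and 2748 with pseudocounts of 0.1 and 1, 2369 without a filter on low values, 2698 with a mean of at least 1 RPKM, 2608 median centred, 2817 after quantile normalization, 2615 without a mean trend and 3503 with all 20 libraries in 1 fit. With libraries 10B and 11 as CSDS it was 146, with 51 higher and 95 lower, and array weights raised the 1126 higher genes to 1711. With single libraries left out the count ran from 1647 (without CSDS 4) to 3685 (without control 10), the higher genes from 634 to 1684 and the lower from 1013 to 2001. Without CSDS 1 it was 1820. For the difference from WT the 27 genes ranged from 16 to 245 with single libraries left out, and were 1 with the conflicting libraries as CSDS and 98 with them as controls. The cause of these moves was not tested.

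The labels do not say that a number shared by knockout-labelled and WT libraries pairs them: across genes, deviations of same-numbered libraries from their group means correlated at −0.11 to 0.37, 3 of 10 pairs were over 0.1, and 5 of 10 libraries correlated best with their own number. With the number as a replicate block the difference from WT was called for 23 genes. Within the knockout label the groups share no number, so no paired fit could be made there. All 9 genes named for the difference kept their call under each alternative other than the conflicting libraries as CSDS, where 1 kept it, and the filter at a mean of 1 RPKM, under which Rec8 was not tested.

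No named gene that passed changed sign under any alternative. Sgk1, which did not pass, turned to 0.038 with array weights and ran from −0.205 (without control 6) to 0.109 (without control 10) with single libraries left out, and Xist ran from −1.62 (without control 6) to 0.0028 (without control 10). With the conflicting libraries as CSDS 28 of the 249 named called genes kept their call.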
